A study of Mus musculus with 31 samples.

Results

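The comparison described here is herring testis DNA (HT-DNA) against vehicle in primary mouse microglia that lack the cytosolic DNA sensor cGAS. It rests on the 6 Cgas-/- libraries with these treatments, 3 with HT-DNA and 3 with vehicle, out of 31 libraries in the series, and on all 13675 of 54532 listed genes that passed a low-count filter, with small changes kept. The series holds 18 libraries of microglia, in which Cgas-/- and Cgas+/+ cells received vehicle, HT-DNA or tau fibrils, and 13 libraries of hippocampus that are not analysed here. The question put to these 6 libraries is what HT-DNA still changes when cGAS is absent.

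Both groups were Cgas-/-, from a line of Cgas-/- mice of a commercial repository, so the loss was carried by every cell and by the vehicle controls too. The cells came from cortices of pups at postnatal days 1 to 3, grew as mixed glia with granulocyte-macrophage colony-stimulating factor, and were shaken off and plated a day before stimulation. The HT-DNA group received 1 μg of HT-DNA per ml and RNA was taken 6 h later. The other group is labelled vehicle, and its columns are marked NT, and what the vehicle held is not given in the sources used here. Nor is it given whether a transfection carrier came with the HT-DNA in these cells, so an effect of a carrier and of the DNA cannot be told apart. Where the wild-type cells are used for comparison, Cgas+/+ microglia received the same treatments, 3 libraries each. Nothing in the labels says that the 3 libraries of a group came from separate cultures or litters, so the p-values measure the spread between these libraries, which may be technical.

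cGAS binds double-stranded DNA in the cytosol and makes the second messenger cGAMP, which activates STING on the endoplasmic reticulum. STING recruits the kinase TBK1, which phosphorylates the transcription factor IRF3, and IRF3 with NF-kB turns on interferon-β and inflammatory genes. Secreted interferon then raises a wide set of interferon-stimulated genes (ISGs) through its receptor. Macrophages and microglia also have routes to gene expression that do not need cGAS, among them Toll-like receptors, the oxidative stress factor NRF2 and the unfolded protein response of the endoplasmic reticulum (ER).

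The libraries counted the 3′ ends of messenger RNAs, with 17037459 to 24284998 counts in each of the 6. Levels below are CPM, reads scaled to library depth, normalized by the trimmed mean of M-values, and every call is a Benjamini-Hochberg adjusted p under 0.05 in edgeR's quasi-likelihood test. An exact permutation test of 3 libraries against 3 cannot go below p = 0.1, so single values were not tested that way. HT-DNA replicate 1 stood apart in structural RNAs: CT010467.1 was at 8601 CPM against 632 to 1782 in the other 5 libraries, and the mitochondrial ribosomal RNA mt-Rnr1 was at 553 CPM against 284 to 324. Its read counts differed from each of the other HT-DNA libraries by a mean chi-square of 22.4 and 28.0 per gene, against 4.16 to 5.38 for the other pairs within a group. Genes with many reads, these structural RNAs among them, weigh most in that mean. Over genes with a mean above 5 CPM, the mean absolute log2 deviation from the group mean was 0.0626 in HT-DNA 1. It was 0.0563 to 0.0593 in the other 5 libraries. Microglial markers were present, and the summed level of 9 of them was 4088 to 4232 CPM with vehicle and 4037 to 4292 CPM with HT-DNA, with none called. Among them P2ry12 was at 4.57 to 7.87 CPM and Tmem119 at 10.6 to 13.5 CPM in the 6 libraries, while Cx3cr1 was at 108 to 114 CPM and Csf1r at 539 to 576 CPM. Summed markers of astrocytes were at 1.25 to 2.51 and 1.44 to 1.88 CPM, of neurons at 0.521 to 1.56 and 0.502 to 1.08 CPM, of the oligodendrocyte lineage at 52.1 to 54.8 and 51.0 to 53.5 CPM with Olig2 at 0, of fibroblasts and endothelium at 21.2 to 25 and 24.8 to 28.6 CPM, and of other leukocytes at 4.22 to 5.02 and 3.61 to 5.60 CPM with 5 of 6 markers at 0, in each case for vehicle and then HT-DNA. In these bulk libraries fewer cells of a type and less RNA per cell cannot be told apart.

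The targeted gene is listed under its older symbol, Mb21d1 (ENSMUSG00000032344, chr9:78430526-78443237 on the minus strand of GRCm38). Its level was 4.07, 5.47 and 5.23 CPM in the 3 vehicle libraries and 3.76, 3.93 and 4.18 CPM in the 3 HT-DNA libraries, or 71 to 119 reads each. The Cgas+/+ vehicle libraries had 27.2, 18.8 and 23.5 CPM. All 6 Cgas-/- libraries were below all 3 wild-type libraries, but reads remained. A 3′ count cannot show whether the deleted part is missing, because the position of the deletion relative to the counted end is not given in the sources used here. Between HT-DNA and vehicle the gene did not pass the test (log2 fold change -0.32 ± 0.15 SE, adjusted p = 0.397).

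HT-DNA changed few genes in Cgas-/- microglia, and mostly by small amounts. Of 13675 genes, 142 (1.04%) were called higher and 38 (0.278%) lower. The median called rise was 19.5% and the median called fall was 19.0%. Of the 180 calls, 162 had a log2 fold change under 0.5 in size, 15 lay between 0.5 and 1, and 3 were beyond 1, 2 of them higher (0.0146% of genes tested) and 1 lower (0.00731%). In all 180 the 3 HT-DNA libraries did not overlap the 3 vehicle libraries, against 10.4% of all genes that were separated upwards and 6.76% downwards. This separation comes from the same values as the calls and adds no support to them. The same test called 3112 genes (22.8%) higher and 3376 (24.7%) lower in Cgas+/+ microglia, with 723 (5.29%) and 382 (2.79%) beyond a log2 fold change of 1. The response to HT-DNA differed between the genotypes for 4648 genes (34%) by the interaction term of the fit, above the Cgas+/+ response for 2377 (17.4%) and below it for 2271 (16.6%). At an unadjusted p under 0.05, 1046 genes (7.65%) were higher and 642 (4.69%) lower in Cgas-/- cells. The calls moved with single libraries: 142 and 38 became 46 and 8 without vehicle 1, 79 and 16 without vehicle 3, 88 and 29 without HT-DNA 1, 64 and 12 without HT-DNA 2, and 71 and 16 without HT-DNA 3. Scaling by the upper quartile gave 112 higher and 51 lower, so the share of calls that were higher was 68.7% in place of 78.9%.

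**Figure D1:**
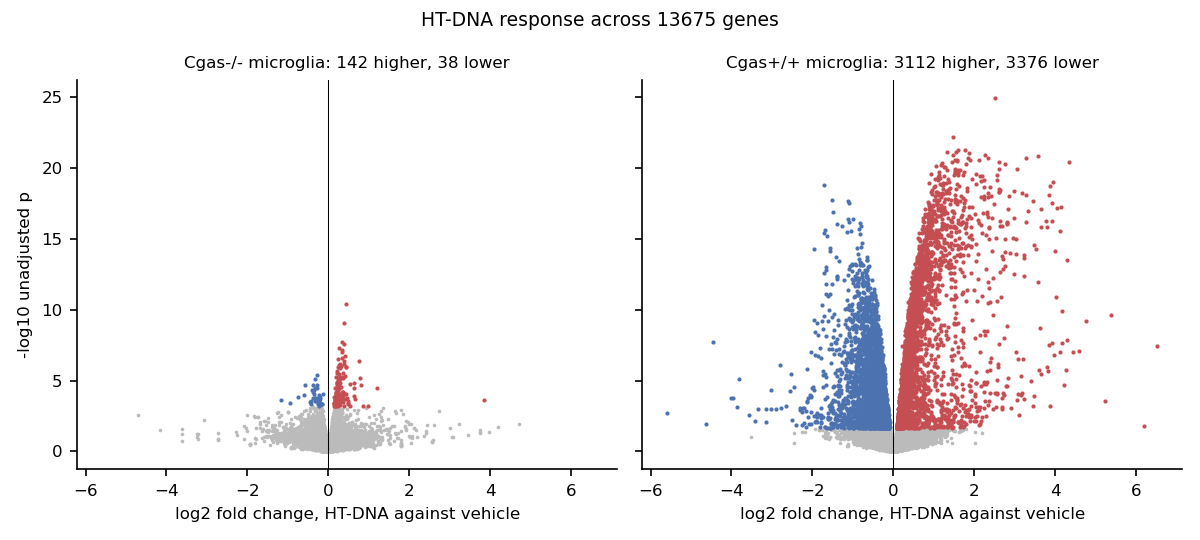
Each point is 1 of 13675 genes, with the log2 fold change of HT-DNA against vehicle on the x axis and -log10 of the unadjusted p on the y axis, for Cgas-/- (left) and Cgas+/+ microglia (right); red genes were called higher and blue genes lower. The Cgas-/- panel holds 142 red and 38 blue points close to 0, and the Cgas+/+ panel 3112 and 3376 that spread to both sides.

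The clearest rises were genes of the NRF2 response. NRF2 is released from its inhibitor KEAP1 by oxidants and electrophiles and turns on genes for glutathione synthesis, thioredoxin recycling and NADPH. Of 22 tested members of a list of NRF2 targets and iron-handling genes, 9 were called higher and none lower, against 1.04% of all genes called higher. The median log2 fold change of the list was 0.13, against 0.01 for all genes tested, and 21 of 22 members were above 0. The 2 leading genes of the whole comparison by p-value were in this list, and their promoter windows (RefSeq, GRCm38.p6, 250 bases before to 50 after the annotated start) are shown because both hold the core of the antioxidant response element bound by NRF2. Capitals mark matches on either strand to TGACNNNGC or TGAGNNNGC, a core found in 27.8% of all 32851 windows, and 1 of the 3 matches in the Srxn1 window overlaps an AP-1 site (TGANTCA, in 7.81% of windows). The core was also in the 1 window of the called member Gclm, in 1 of 2 windows of Me1, in 1 of 3 of Txnrd1 and in 1 of 2 of Pgd. It was not in that of Nqo1, Hmox1 had no window, and Gclc was not looked up. A gene with several windows has more chances of a match.
Srxn1 (chr2:152105274-152105573, plus strand): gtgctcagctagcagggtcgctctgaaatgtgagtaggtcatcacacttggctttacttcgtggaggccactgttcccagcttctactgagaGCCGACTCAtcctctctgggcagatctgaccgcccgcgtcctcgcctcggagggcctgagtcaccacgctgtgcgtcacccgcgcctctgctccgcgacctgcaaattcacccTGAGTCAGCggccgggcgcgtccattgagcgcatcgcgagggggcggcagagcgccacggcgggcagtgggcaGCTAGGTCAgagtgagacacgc
Slc7a11 (chr3:50443564-50443863, minus strand): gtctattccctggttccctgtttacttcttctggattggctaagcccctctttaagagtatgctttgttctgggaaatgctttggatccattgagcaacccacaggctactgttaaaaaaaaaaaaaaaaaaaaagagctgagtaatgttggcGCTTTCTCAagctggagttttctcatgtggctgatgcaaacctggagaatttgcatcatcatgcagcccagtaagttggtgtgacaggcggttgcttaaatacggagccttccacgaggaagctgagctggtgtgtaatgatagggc

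Slc7a11, the cystine importer that feeds glutathione synthesis, was at 338, 340 and 345 CPM in the vehicle libraries and at 469, 453 and 478 CPM in the HT-DNA libraries. Its rise of 36.8% (log2 fold change 0.45 ± 0.04 SE, adjusted p = 5.11e-07) came with 3 HT-DNA libraries that all exceeded the highest vehicle library by more than the spread within either group. Srxn1, which repairs over-oxidised peroxiredoxins, was at 260, 256 and 271 CPM with vehicle and at 331, 344 and 364 CPM with HT-DNA (0.40 ± 0.04 SE, adjusted p = 6.33e-06). In both genes every HT-DNA library lay above every vehicle library, which the rule for naming them required and which adds no support to the calls. Hmox1, the heme-degrading oxygenase, rose from 1153, 1159 and 1169 CPM to 1391, 1401 and 1386 CPM, (0.26 ± 0.04 SE, adjusted p = 0.000151). Me1, a cytosolic source of NADPH, rose from 23.2, 23.1 and 23.3 CPM to 29.7, 33.0 and 32.3 CPM (0.45 ± 0.07 SE, adjusted p = 0.000800). The vehicle libraries of these genes hardly differed among themselves.

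Nqo1, a quinone reductase, was a lower-count member, at 8.32, 7.77 and 7.43 CPM with vehicle and 9.80, 12 and 11.2 CPM with HT-DNA (0.50 ± 0.12 SE, adjusted p = 0.0278). The 4 other called members are named because they were called, outside the rule for named genes. Both subunits of the enzyme that starts glutathione synthesis rose, Gclm by 0.26 ± 0.05 (adjusted p = 0.00319) and Gclc by 0.26 ± 0.06 (adjusted p = 0.0276). Txnrd1, the thioredoxin reductase, rose by 0.24 ± 0.04 (adjusted p = 0.00389) and Pgd, of the pentose phosphate pathway, by 0.17 ± 0.04 (adjusted p = 0.0252), all as log2 fold change ± SE. Members that did not pass included Prdx1 (0.17, adjusted p = 0.0507), the ferritin chains Fth1 (0.08) and Ftl1 (0.09), and the genes of NRF2 and its inhibitor, Nfe2l2 (0.04) and Keap1 (-0.01). Between 6 and 8 members stayed called with any 1 library left out. Leaving out single libraries ended no call of Slc7a11, Srxn1, Hmox1, Me1, Gclm or Txnrd1, while Nqo1 and Gclc were lost without any of vehicle 1, vehicle 2, vehicle 3, HT-DNA 2 or HT-DNA 3 (adjusted p from 0.0552 to 0.202) and Pgd without any library but vehicle 2 (0.0597 to 0.147).

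In Cgas+/+ microglia the same list went the other way on balance, with 4 members higher, 11 lower and a median of -0.12, against 22.8% of all genes higher and 24.7% lower. Srxn1 fell from 318, 310 and 284 CPM to 219, 210 and 218 CPM in Cgas+/+ cells (-0.50, adjusted p = 1.67e-10), and the interaction was 0.90 ± 0.06 (adjusted p = 4.94e-12). The responses of Me1 (-0.39 in Cgas+/+), Nqo1 (-0.56), Gclm (-0.49), Gclc (-0.84) and Txnrd1 (-0.36) were likewise of opposite sign, each with a called interaction. Slc7a11 (0.01) and Hmox1 (adjusted p = 0.933) did not pass in Cgas+/+ cells, and their responses also differed between genotypes, by 0.44 and 0.27. In all, 16 of the 22 members had a called interaction above 0 and 3 below 0, against 17.4% and 16.6% of all genes. Tau fibrils in Cgas-/- cells, a comparison that shares the vehicle libraries, called 20 members higher and none lower, with a median of 0.43, against 11.2% of all genes higher and 5.48% lower. Slc7a11 was at 716, 737 and 702 CPM there, above the HT-DNA libraries.

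A second group of rises was ER chaperones and their regulators. The unfolded protein response raises chaperones of the ER lumen through the factors ATF6 and XBP1, and the integrated stress response raises amino acid genes through ATF4. Of 25 tested members of a combined list, 6 were called higher and none lower, against 1.04% and 0.278% of all genes, the median was 0.13, and 22 were above 0, against 52.9% of all genes. Those called were mainly of the chaperone side. The ER stress response element described next was also in the windows of Calr and Hsp90b1, and not in those of Herpud1 and Pdia4. The promoter window of Hspa5 is shown because it holds the ER stress response element to which ATF6 and NF-Y bind, in capitals (CCAAT, then 9 bases of any kind, then CCACG, on either strand, in 0.119% of all windows).
Hspa5 (chr2:34771840-34772139, plus strand): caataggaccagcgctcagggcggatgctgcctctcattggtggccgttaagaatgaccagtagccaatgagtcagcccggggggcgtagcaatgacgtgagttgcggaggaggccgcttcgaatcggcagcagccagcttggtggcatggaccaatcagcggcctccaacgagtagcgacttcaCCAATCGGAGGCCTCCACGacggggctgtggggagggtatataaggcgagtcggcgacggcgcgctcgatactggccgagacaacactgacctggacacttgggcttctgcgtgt

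Hspa5, which encodes the ER chaperone BiP, was at 1498, 1539 and 1485 CPM with vehicle and at 1881, 1744 and 1723 CPM with HT-DNA (0.24 ± 0.05 SE, adjusted p = 0.00538). Herpud1, a component of ER-associated degradation, rose from 53, 51.6 and 53.5 CPM to 63.3, 63.9 and 62.4 CPM (0.26 ± 0.05 SE, adjusted p = 0.00635). Calr, the lectin chaperone calreticulin, rose from 692, 732 and 668 CPM to 832, 803 and 768 CPM (0.20 ± 0.04 SE, adjusted p = 0.0162). The HT-DNA and vehicle libraries of these genes did not overlap, as in every called gene, and HT-DNA 1 was the highest library for Hspa5 and Calr. Pdia4, a disulfide isomerase, was at 127, 133 and 123 CPM with vehicle and at 164, 141 and 143 CPM with HT-DNA (0.23 ± 0.06 SE, adjusted p = 0.0392). Manf, an ER-resident factor secreted under ER stress and not in the list, rose from 88.9, 87.0 and 89.0 CPM to 110, 107 and 109 CPM (0.30 ± 0.05 SE, adjusted p = 0.000710). Of the remaining called members, Hsp90b1 rose by 0.17 (adjusted p = 0.0308) and the amino acid carrier subunit Slc3a2 by 0.19 (adjusted p = 0.0130), while Hyou1, an ER chaperone outside the list and chosen after its value was seen, rose by 0.22 (adjusted p = 0.00682). The factors of the ATF4 arm were not called, with adjusted p = 0.986 for Atf4, 0.930 for Ddit3 and 0.703 for Trib3.

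The count of 6 fell to 1 without HT-DNA 1, the library with excess structural RNA, to 2 without vehicle 1 and to 3 without HT-DNA 2 or HT-DNA 3. Herpud1 and Manf stayed called with any library left out, Hspa5 was lost without HT-DNA 1 alone (adjusted p = 0.0723), and Calr (0.0684 to 0.134), Pdia4 (0.0616 to 0.319), Hsp90b1 (0.0807 to 0.183), Slc3a2 (0.0555 to 0.0784) and Hyou1 (0.0519 to 0.0882) were each lost without HT-DNA 1, without vehicle 1 and without 1 to 3 further libraries. In Cgas+/+ microglia 9 members were called higher and 11 lower, against 22.8% and 24.7% of all genes, with Hspa5 at 0.98 and Herpud1 at -0.19, and the interaction was -0.73 for Hspa5 and 0.45 for Herpud1, both called.

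**Figure D2:**
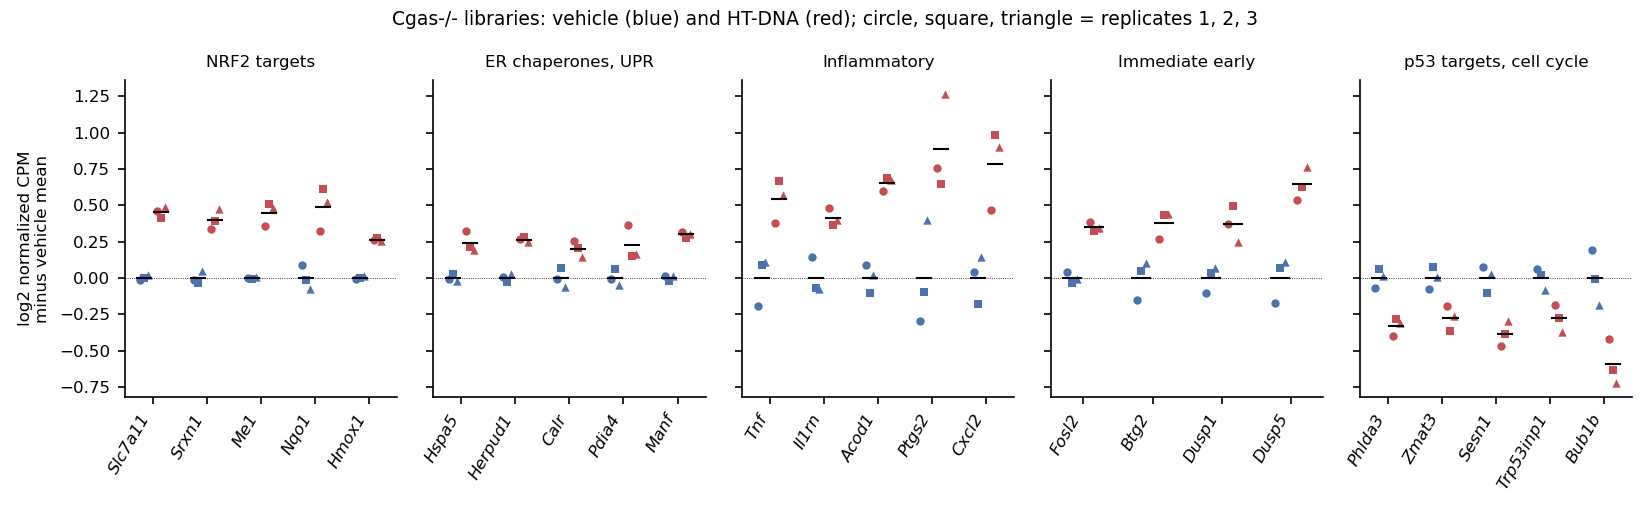
Each point is 1 Cgas-/- library, with vehicle in blue and HT-DNA in red, and the y axis gives log2 normalized CPM minus the mean of the 3 vehicle libraries; bars are means of 3. Slc7a11, Srxn1, Me1 and Hmox1 show 2 tight and separate groups, Ptgs2 and Cxcl2 show wider ones, and the p53 target genes and Bub1b lie below 0.

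Immediate early genes, which growth and stress signals switch on without new protein synthesis, held 8 called rises and no fall among 29 tested members, against 1.04% of all genes called higher, with a median of 0.17 (0.262 without vehicle 3) and 26 members above 0, against 52.9%. Fosl2, a partner in the AP-1 transcription factor, was at 80.8, 76.5 and 78.2 CPM with vehicle and at 102, 98.1 and 99.5 CPM with HT-DNA (0.35 ± 0.04 SE, adjusted p = 8.11e-05). Btg2, an antiproliferative gene, rose from 32.5, 37.3 and 38.8 CPM to 43.3, 48.7 and 48.9 CPM (0.38 ± 0.06 SE, adjusted p = 0.00187). Dusp1, a phosphatase that turns off p38 and JNK, rose from 29.6, 32.6 and 33.3 CPM to 41.1, 44.9 and 37.7 CPM (0.37 ± 0.07 SE, adjusted p = 0.00284). All 3 were separated between the groups, as was every called gene, so this adds no support. Dusp5, a phosphatase of ERK, went from 6.92, 8.18 and 8.45 CPM to 11.3, 12.1 and 13.3 CPM, a rise of 55.6% (0.64 ± 0.13 SE, adjusted p = 0.00799). Dusp4 (0.32), Ier3 (0.33), Jun (0.20) and Klf6 (0.16) completed the called members. Other members were not called, with Fos at 0.19 (adjusted p = 0.329), Egr1 at 0.30 (0.16), Junb at 0.12 (0.344) and Atf3 at 0.02 (0.917). The count of 8 was 4 without vehicle 1 and 5 without any other single library. Fosl2, Btg2 and Dusp1 stayed called in each case, Dusp5 was lost without vehicle 1 (adjusted p = 0.0811) or HT-DNA 3 (0.0681), Dusp4 without vehicle 3 (0.0527), Ier3 without vehicle 1, vehicle 2, HT-DNA 1 or HT-DNA 2 (0.0798 to 0.102), and Jun and Klf6 without any 1 of the 6 (0.0595 to 0.182).

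Other genes among the rises with the smallest p-values belonged to none of the lists above. Ets2, an ETS-family transcription factor, rose from 78.6, 82.1 and 82.1 CPM to 102, 106 and 108 CPM (0.38 ± 0.05 SE, adjusted p = 9.69e-05). Phlda1, named for a pleckstrin homology-like domain, had one of the larger changes, from 7.48, 7.14 and 8.31 CPM to 11.6, 12.7 and 14.3 CPM, or 68.3% (0.75 ± 0.11 SE, adjusted p = 0.000494). Trib1, a pseudokinase that directs degradation of C/EBPα, rose from 24.4, 25.2 and 24.6 CPM to 32.1, 32.1 and 32.6 CPM (0.38 ± 0.06 SE, adjusted p = 0.000494). None of these groups overlapped, which the rule for naming these genes required. The intermediate filament genes Nes (0.34, adjusted p = 0.000157) and Vim (0.23, adjusted p = 0.000443), the hyaluronan receptor Cd44 (0.26, adjusted p = 0.000723), the membrane protein Emp1 (0.38, adjusted p = 0.000710) and the phosphate carrier Slc20a1 (0.35, adjusted p = 0.000401) also rose. Each of these 8 genes stayed called with any 1 library left out. Slc20a1 did not pass in Cgas+/+ cells (-0.03), and its response there was below that in Cgas-/- cells by 0.37 (interaction adjusted p = 0.000228).

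The share of genes called higher in Cgas-/- microglia was 19% for cytokines, 8.7% for NF-kB genes and 8.7% for chemokines, against 1.04% of all genes. In Cgas+/+ cells most members of these lists were called higher, against 22.8% of all genes. Of 21 tested cytokines and mediators 4 were called higher, with a median of 0.23 (0.357 without vehicle 1), against 19 and a median of 1.61 in Cgas+/+ microglia. Of 23 genes for NF-kB subunits and their feedback inhibitors 2 were called higher, with a median of 0.11, against 18 and a median of 0.52. Of 23 chemokines and chemokine receptors 2 were called higher, with a median of 0.07 (0.032 without HT-DNA 2 and 0.152 without HT-DNA 3), against 16 and a median of 1.46. No member of the 3 lists was called lower in Cgas-/- cells. At an unadjusted p under 0.05 in edgeR's test, 12 cytokines were higher and 1 lower in Cgas-/- cells. The counts were 10 and 0 for NF-kB genes and 6 and 1 for chemokines, against 7.65% and 4.69% of all genes. Among called interactions the Cgas-/- response lay below the Cgas+/+ response in 15 of 15 cytokines, 13 of 14 NF-kB genes and 10 of 11 chemokines. Over all genes, 16.6% had a called interaction below and 17.4% above.

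Tnf was at 27.3, 33.2 and 33.7 CPM with vehicle and at 40.6, 49.8 and 46.6 CPM with HT-DNA in Cgas-/- cells, a rise of 45.3% (0.54 ± 0.10 SE, adjusted p = 0.00538). In Cgas+/+ cells the rise was 2.25 on the log2 scale, and the interaction was -1.71 ± 0.15 (adjusted p = 2.88e-10). Il1rn, the interleukin-1 receptor antagonist, rose from 64.9, 56.1 and 55.9 CPM to 82.2, 75.6 and 77.5 CPM (0.41 ± 0.07 SE, adjusted p = 0.00250). The groups were separated for both, as for every called gene, which adds no support. Acod1, which makes itaconate, rose from 24.1, 21.2 and 23 CPM to 34.4, 36.7 and 36.3 CPM (0.65 ± 0.15 SE, adjusted p = 0.0232). Ptgs2, the inducible cyclooxygenase, went from 2.90, 3.34 and 4.71 CPM to 6.04, 5.58 and 8.57 CPM and barely passed (0.86 ± 0.22 SE, adjusted p = 0.0497). With limma-voom neither Acod1 (adjusted p = 0.192) nor Ptgs2 (0.204) was called. The inhibitors Nfkbiz (0.36 ± 0.08 SE, adjusted p = 0.0127) and Nfkbie (0.36 ± 0.08 SE, adjusted p = 0.0225) were the called NF-kB genes. The count of 4 cytokines was 1 without vehicle 1 or HT-DNA 2 and 2 without HT-DNA 1 or HT-DNA 3, and that of the NF-kB genes was 0 without vehicle 1, vehicle 2 or HT-DNA 3 and 1 without HT-DNA 2. Il1rn stayed called in each case, whereas Tnf was lost without vehicle 1 (adjusted p = 0.0719) or HT-DNA 2 (0.0588), Acod1 without any 1 of the 6 (0.0571 to 0.102), Ptgs2 without any but vehicle 3 (0.0588 to 0.315), Nfkbie without any but HT-DNA 1 (0.0561 to 0.126) and Nfkbiz without vehicle 1, vehicle 2 or HT-DNA 3 (0.07 to 0.108).

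The 2 called chemokines were the neutrophil attractants Cxcl2 and Cxcl3. Cxcl2 was at 7.65, 6.57 and 8.23 CPM with vehicle and at 10.3, 14.7 and 13.9 CPM with HT-DNA, a rise of 74.0% (0.80 ± 0.16 SE, adjusted p = 0.00599), and its rise in Cgas+/+ cells was 0.72, with no difference called (interaction adjusted p = 0.854). Cxcl3 (ENSMUSG00000029379, chr5:90786103-90789600) was at 0.837, 1.04 and 1.80 CPM with vehicle and at 3.76, 2.29 and 2.88 CPM with HT-DNA. It was the largest called change in a protein-coding gene, 2.32-fold (1.22 ± 0.24 SE, adjusted p = 0.00799), on 15 to 71 reads per library. In Cgas+/+ cells it fell from 34, 52 and 28 reads to 8, 9 and 5 reads (-2.14, adjusted p = 8.48e-06), so the 2 genotypes differed by 3.35 ± 0.42 (interaction adjusted p = 3.09e-07). The Cxcl2 call was lost without HT-DNA 2 (adjusted p = 0.0640) and the Cxcl3 call without vehicle 1 (0.0802) or HT-DNA 1 (0.0571). The count of 2 was 1 without vehicle 1, HT-DNA 1 or HT-DNA 2. The windows of Cxcl1, Il6 and Nfkbia, which were not called, also held a kappaB match as defined below. Those of the called Tnf, Acod1, Ptgs2, Il1rn and Nfkbie held none. Both Cxcl2 and Cxcl3 lie on chromosome 5, and their promoter windows are shown because each holds a match to a kappaB site in capitals (GGGA, then 1 base of any kind, then TTTCC, on either strand, in 0.411% of all windows), and the matches have the same letters.
Cxcl2 (chr5:90903649-90903948, plus strand): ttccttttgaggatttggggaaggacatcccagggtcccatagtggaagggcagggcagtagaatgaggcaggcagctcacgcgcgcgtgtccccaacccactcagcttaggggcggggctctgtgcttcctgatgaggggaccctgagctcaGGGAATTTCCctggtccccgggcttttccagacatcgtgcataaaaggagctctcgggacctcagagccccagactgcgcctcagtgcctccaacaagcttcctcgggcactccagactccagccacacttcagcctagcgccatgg
Cxcl3 (chr5:90785851-90786150, plus strand): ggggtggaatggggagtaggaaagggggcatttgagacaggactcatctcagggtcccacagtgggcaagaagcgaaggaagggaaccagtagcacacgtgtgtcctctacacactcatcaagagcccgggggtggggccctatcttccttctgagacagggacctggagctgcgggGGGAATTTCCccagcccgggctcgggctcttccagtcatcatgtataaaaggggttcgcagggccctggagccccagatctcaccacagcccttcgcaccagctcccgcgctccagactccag

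Several chemokines and cytokines of the fixed set did not pass in Cgas-/- cells. Ccl4 was at 31.0, 28.6 and 28.3 CPM with vehicle and at 42.8, 43.3 and 36.3 CPM with HT-DNA (0.48 ± 0.13 SE, adjusted p = 0.0709). Ccl3 was at 81.4, 80.9 and 87.6 CPM and at 105, 106 and 106 CPM (0.34 ± 0.10 SE, adjusted p = 0.0933). The groups did not overlap in either, and both were called when the fit held the 6 compared libraries alone (adjusted p = 0.000406 and 0.000129). The inhibitor Nfkbia was at 0.25 ± 0.07 (adjusted p = 0.103, and 0.0268 with the 6 libraries alone), and Il1b was at 1.02 ± 0.32 (adjusted p = 0.142) on 13 to 70 reads. Ccl5, Cxcl1 and Il6 had 1 to 25 reads in each of the 6 libraries and adjusted p-values of 0.693, 0.721 and 0.656.

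Some receptors and sensors of innate immunity were also called, in lists where 1 or 2 calls stand against 1.04% of all genes called higher. Cd14, the co-receptor for lipopolysaccharide, rose from 374, 372 and 376 CPM to 461, 488 and 466 CPM (0.34 ± 0.05 SE, adjusted p = 0.000183). C5ar1, the receptor for complement C5a, rose from 84.1, 73.2 and 69.4 CPM to 101, 97.5 and 106 CPM (0.43 ± 0.06 SE, adjusted p = 0.000335). Olr1, a scavenger receptor for oxidised lipoprotein, rose from 42.4, 48.2 and 47.1 CPM to 51.1, 61 and 61.7 CPM (0.34 ± 0.07 SE, adjusted p = 0.0127). These were 2 of 23 scavenger and phagocytic receptors and 1 of 14 complement genes. Nlrp3, the inflammasome sensor, was the 1 called gene of 16 in its list, at 44.7, 48.2 and 44.7 CPM with vehicle and 54.8, 59.1 and 67.3 CPM with HT-DNA (0.40 ± 0.09 SE, adjusted p = 0.0162). Among 30 other DNA and RNA sensors 1 was called, Lrrfip1 (0.23 ± 0.04 SE, adjusted p = 0.00182), whose product binds nucleic acids. Cd14, C5ar1 and Lrrfip1 stayed called with any library left out, Olr1 was lost without vehicle 1, HT-DNA 2 or HT-DNA 3 (adjusted p from 0.0931 to 0.116) and Nlrp3 without vehicle 1, vehicle 3 or HT-DNA 3 (0.0809 to 0.145).

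Glycolysis and hypoxia genes gave 4 called rises among 27, against 1.04% of all genes, with a median of 0.08. The glucose transporter Slc2a1 rose from 247, 245 and 253 CPM to 286, 293 and 300 CPM (0.24 ± 0.04 SE, adjusted p = 0.00281). The phosphofructokinase Pfkp (0.23, adjusted p = 0.00538), the ER oxidase Ero1l (0.23, adjusted p = 0.0252) and the lactate exporter Slc16a3 (0.15, adjusted p = 0.0334) followed. Slc2a1 stayed called with any library left out. The count of 4 was 1 without vehicle 1 and 2 without vehicle 3 or any HT-DNA library, with Pfkp lost without vehicle 1 (adjusted p = 0.0802), Ero1l without any but vehicle 2 (0.0603 to 0.230) and Slc16a3 without any 1 of the 6 (0.0821 to 0.209).

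The interferon programme that HT-DNA sets off in wild-type microglia was not called in Cgas-/- cells. Interferon-β itself (Ifnb1) had 0 reads in all 6 Cgas-/- libraries, which allows up to 0.124 to 0.176 CPM by counting error, against 71, 96 and 83 reads in Cgas+/+ cells with HT-DNA. Ifna1, Ifna2, Ifna4, Ifna5, Ifng, Ifnl2 and Ifnl3 also had 0 reads in the 6 libraries. Of 79 tested ISGs none was called in edgeR's quasi-likelihood test, whose estimate of spread was shared with the Cgas+/+ and tau libraries. At an unadjusted p under 0.05 in that test, 12 were higher and 0 lower, against 7.65% and 4.69% of all genes. DESeq2 called 1 and limma-voom none. In Cgas+/+ cells with HT-DNA 78 were called higher, against 22.8% of all genes. For 64 of the 79 ISGs the interaction was called, each with the Cgas-/- response below the Cgas+/+ one, against 16.6% of all genes. The summed level of the list was 1701, 1875 and 1686 CPM with vehicle and 1874, 2032 and 1930 CPM with HT-DNA, against 16230, 9919 and 12890 CPM and then 51920, 55800 and 54690 CPM in Cgas+/+ cells. The Cgas-/- libraries with vehicle thus began well below the Cgas+/+ ones, and a fold change in each genotype is relative to its own vehicle.

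**Figure D3:**
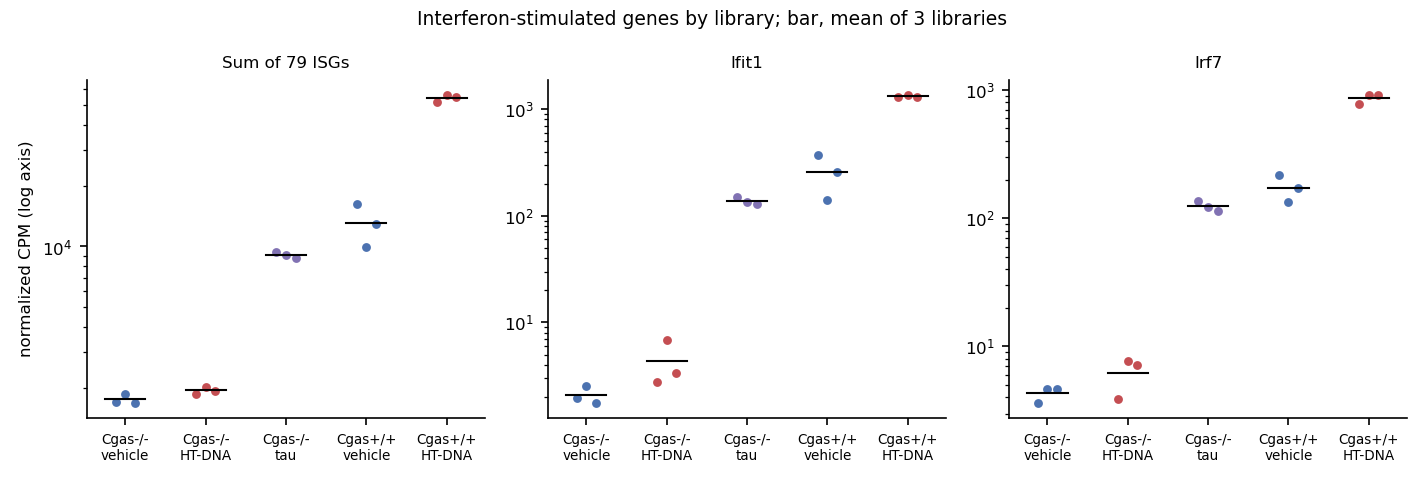
Normalized CPM on a log axis for the sum of 79 ISGs, for Ifit1 and for Irf7, with 1 point per library and bars at the mean of 3. Cgas-/- libraries with vehicle (1686 to 1875 CPM in sum) and with HT-DNA (1874 to 2032 CPM) lie close together, below Cgas-/- libraries with tau fibrils (8751 to 9406 CPM) and all Cgas+/+ libraries.

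Most ISGs had log2 fold changes slightly above 0. The median log2 fold change of the list was 0.19 in Cgas-/- cells, against 0.01 for all genes and 1.71 in Cgas+/+ cells, and 67 of 79 members were above 0, against 52.9% of all genes. In 20 members the HT-DNA libraries lay above the vehicle libraries without overlap, against 10.4% of all genes. Tau fibrils in the same Cgas-/- cells, against the same vehicle libraries, called 77 of 79 higher with a median of 2.86, where 11.2% of all genes were called higher. Ifit1, an antiviral RNA-binding protein, was at 1.95, 2.55 and 1.76 CPM with vehicle and at 2.76, 6.78 and 3.39 CPM with HT-DNA (1.09 ± 0.47 SE, adjusted p = 0.322). The promoter window of Ifit1 is shown as the counterpart of those above, with 2 interferon-stimulated response elements in capitals (GAAA, then 2 bases of any kind, then GAAA, on either strand, in 3.44% of all windows).
Ifit1 (chr19:34640639-34640938, plus strand): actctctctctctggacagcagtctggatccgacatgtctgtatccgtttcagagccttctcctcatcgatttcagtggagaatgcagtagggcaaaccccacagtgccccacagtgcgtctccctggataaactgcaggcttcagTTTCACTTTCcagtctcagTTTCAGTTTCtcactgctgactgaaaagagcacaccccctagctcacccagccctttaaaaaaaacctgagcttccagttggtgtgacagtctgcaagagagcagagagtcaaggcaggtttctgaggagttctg

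HT-DNA 2 was the highest library for Ifit1, as it was for Ifit3 (1.70, 5.26 and 1.80 CPM), Cxcl10 (0.795, 2.37 and 0.752 CPM), Irf7 (3.92, 7.74 and 7.11 CPM) and Isg15 (4.19, 5.38 and 3.80 CPM). With vehicle, Ifit3 was at 1.23, 1.72 and 1.32 CPM, Cxcl10 at 0.614, 0.625 and 0.396 CPM, Irf7 at 3.63, 4.69 and 4.62 CPM and Isg15 at 1.90, 3.75 and 3.21 CPM. None of these 4 was called (adjusted p from 0.332 for Irf7 to 0.599 for Cxcl10). The antiviral enzyme genes Rsad2 and Cmpk2, chosen after their values were seen, came nearest. Rsad2 was at 3.57, 8.81 and 6.16 CPM with vehicle and at 10.2, 25.6 and 11 CPM with HT-DNA (1.35 ± 0.36 SE, adjusted p = 0.0602). Cmpk2 was at 1.90, 4.69 and 2.16 CPM and at 5.46, 9.63 and 6.02 CPM (1.3 ± 0.41 SE, adjusted p = 0.143). The groups did not overlap for either. With the 6 compared libraries fitted alone, which changed both the estimate of spread and the genes passing the filter (12424), 5 of 70 tested ISGs were called higher, Rsad2 (adjusted p = 0.00501), Cmpk2 (0.00443) and Ifit1 (0.0350) among them, and 3 were called without vehicle 2 and 1 without HT-DNA 1. With no low-count filter 19 were called higher and 1 lower.

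None of 20 tested genes for the pathway and for enzymes that clear DNA was called by edgeR, and DESeq2 and limma-voom called none. At an unadjusted p under 0.05 in edgeR, 0 were higher and 3 lower, against 7.65% and 4.69% of all genes. The fit without HT-DNA 1 called 1 lower, and the fit with no low-count filter 1 higher. Tmem173, which encodes STING, was at 22.1, 21.9 and 21.7 CPM with vehicle and at 21.6, 21.2 and 23.9 CPM with HT-DNA (0.02 ± 0.07 SE). Tbk1 was at 61.6, 61.9 and 66.2 CPM and at 64.8, 65.8 and 62.7 CPM (0.03 ± 0.04 SE), and Irf3 at 34.9, 36 and 39.5 CPM and at 39.0, 36.5 and 33.9 CPM (-0.02 ± 0.06 SE). The 2 groups overlapped in all 3 genes. In Cgas+/+ cells Tbk1 rose by 0.75 (adjusted p = 1.01e-14) and the interaction was -0.72 ± 0.06.

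The falls were fewer, and 4 of the 10 with the smallest p-values were targets of the tumour suppressor p53. Of 21 tested p53 targets 4 were called lower and none higher, against 0.278% of all genes called lower, while the list's median was -0.02 and turned to 0.007 without vehicle 3. Phlda3, a brake on AKT, fell from 60.9, 66.7 and 64.6 CPM to 48.5, 52.7 and 51.7 CPM, by 20.4% (-0.33 ± 0.06 SE, adjusted p = 0.00319). Zmat3, an RNA-binding protein, went from 83.8, 92.9 and 88.5 CPM to 77.1, 68.4 and 73.6 CPM (-0.28 ± 0.05 SE, adjusted p = 0.00554). Sesn1, a stress-induced inhibitor of mTORC1, went from 26.3, 23.3 and 25.5 CPM to 18, 19.1 and 20.3 CPM (-0.38 ± 0.07 SE, adjusted p = 0.00554). Trp53inp1 went from 72.6, 70.4 and 65.5 CPM to 61.1, 57.3 and 53.8 CPM (-0.28 ± 0.06 SE, adjusted p = 0.00799). In each of the 4 all HT-DNA libraries lay below all vehicle libraries, which the rule for naming the falls with the smallest p required. Over the whole list, 6 members were lower and 2 higher at an unadjusted p under 0.05, against 4.69% and 7.65% of all genes. All HT-DNA libraries lay below all vehicle libraries in 7 members, against 6.76% of all genes. Among members not called and chosen after their values were seen, Bbc3 was at -0.15 (adjusted p = 0.23), Ccng1 at -0.11 (0.297), Cdkn1a at 0.02 (0.92) and Mdm2 at 0.10 (0.304). In Cgas+/+ cells the same 4 genes fell by 0.52, 0.65, 0.89 and 0.50 in that order, more than in Cgas-/- cells for Zmat3, Sesn1 and Trp53inp1 by the interaction (0.38, 0.51 and 0.22, adjusted p from 0.000250 to 0.0356), and for Phlda3 no difference was called (0.19, adjusted p = 0.101). Phlda3 stayed called with any library left out, the count of 4 was 2 without vehicle 1, and Zmat3 was lost without HT-DNA 2 (adjusted p = 0.0695), Sesn1 without vehicle 1 (0.0592) and Trp53inp1 without vehicle 1 (0.0794) or HT-DNA 3 (0.0819).

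Of 36 tested genes of replication and mitosis 1 was called lower, against 0.278% of all genes. In the list 31 members were below 0, against 6425 of 13675 over all genes, the median was -0.18, and 13 had all HT-DNA libraries below all vehicle libraries, against 6.76% of all genes. The called gene was the mitotic checkpoint kinase Bub1b, at 8.99, 7.82 and 6.91 CPM with vehicle and 5.88, 5.06 and 4.76 CPM with HT-DNA (-0.60 ± 0.13 SE, adjusted p = 0.0184), and it was lost without vehicle 1, vehicle 2, HT-DNA 2 or HT-DNA 3 (0.0505 to 0.147). The proliferation marker Mki67 was at -0.38 (adjusted p = 0.133) and the replication helicase subunits Mcm3 and Mcm4 were at -0.29 each (0.164 and 0.172). In Cgas+/+ cells 25 members were called lower and 5 higher, against 24.7% and 22.8% of all genes, with a median of -0.63. Psrc1, a spindle protein outside the list, went from 14.8, 18 and 18.9 CPM to 12.1, 9.91 and 13.1 CPM (-0.56 ± 0.11 SE, adjusted p = 0.00579), and was lost without vehicle 3 (0.0586) or HT-DNA 2 (0.0726).

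Among genes of microglial state, changes were few and small. Apoe, the lipid carrier of disease-associated microglia and the most abundant gene named here, went from 20739, 19009 and 21233 CPM to 18648, 18057 and 18724 CPM, a fall of 9.11% (-0.14 ± 0.03 SE, adjusted p = 0.0161). It was the only called gene of 29 in its list, against 1.04% of all genes called higher and 0.278% lower. At an unadjusted p under 0.05 in edgeR's test, 7 of the 29 were higher and 6 lower, against 7.65% and 4.69% of all genes. Of 20 tested homeostatic genes Rhob rose (0.24 ± 0.04 SE, adjusted p = 0.000800) and the purinergic receptor P2ry13 fell, from 14.3, 16.8 and 14.7 CPM to 13.5, 10.4 and 10.03 CPM (-0.45 ± 0.11 SE, adjusted p = 0.0301). P2ry12 did not pass (-0.38 ± 0.14 SE, adjusted p = 0.22). The homeostatic list thus held 1 call in each direction, against 1.04% of all genes higher and 0.278% lower. At an unadjusted p under 0.05, 1 of its 20 members was higher and 4 were lower. Entpd1, the ectonucleotidase CD39, fell from 44.9, 46.8 and 44.0 CPM to 34.4, 38.8 and 34.1 CPM (-0.34 ± 0.07 SE, adjusted p = 0.00799). In Cgas+/+ cells P2ry13 (0.99) and Entpd1 (0.70) rose, with interactions of -1.44 and -1.03, both called. Tmem86a (-0.27, adjusted p = 0.00222), Gas7 (-0.35, adjusted p = 0.00993) and Dglucy (-0.41, adjusted p = 0.0105) were the remaining named falls. Rhob and Tmem86a stayed called with any library left out, Entpd1 was lost without HT-DNA 3 (adjusted p = 0.0717), Apoe without vehicle 1, vehicle 3 or HT-DNA 2 (0.112 to 0.127), P2ry13 without any but HT-DNA 1 (0.0684 to 0.197), Gas7 without vehicle 1, vehicle 2 or HT-DNA 1 (0.0530 to 0.0684) and Dglucy without vehicle 1, vehicle 3 or HT-DNA 3 (0.0554 to 0.0828).

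**Figure D4:**
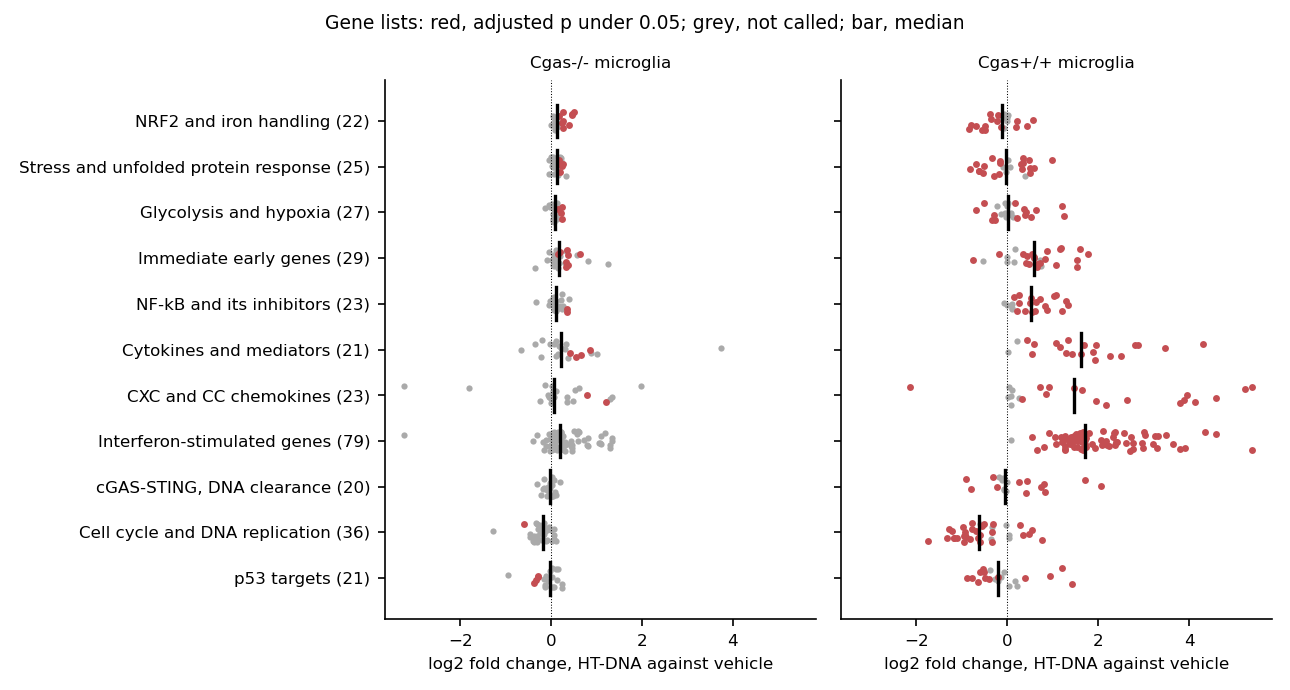
Log2 fold change of HT-DNA against vehicle for the tested members of 11 gene lists (number of members in brackets) in Cgas-/- (left) and Cgas+/+ microglia (right); red points were called, grey points were not, and black bars are medians. In Cgas-/- cells 9 NRF2 and iron genes are red with a median of 0.13 and no ISG is red with a median of 0.19, whereas in Cgas+/+ cells the ISG median is 1.71.

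Of the 3 genes past a log2 fold change of 1, 2 are not protein-coding. Gm22009 (ENSMUSG00000089417), a small Cajal body RNA at chr3:69085105-69085447, was at 9.70 CPM in HT-DNA 1, the library with excess structural RNA, and at 0.208 to 0.481 CPM in the other 5, so 1 library made the call, and without it the adjusted p was 0.674. Its call was also lost without vehicle 1, vehicle 2 or vehicle 3 (0.102 to 0.126). A130077B15Rik (ENSMUSG00000112095), a long intergenic RNA at chr10:122565023-122569891, was at 3.07, 1.98 and 1.85 CPM with vehicle and at 0.848, 0.843 and 1.34 CPM with HT-DNA (-1.16 ± 0.27 SE, adjusted p = 0.0259), and was lost without vehicle 1, HT-DNA 1 or HT-DNA 2 (0.107 to 0.242). It also fell in Cgas+/+ cells, by 1.94.

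Lists without a call covered interferon receptors and their kinases, lysosome and autophagy (39 genes, median 0.02), cholesterol synthesis (30, 0.05), heat shock proteins (12, 0.08), oxidative phosphorylation (48, -0.02), antigen presentation by MHC (20, 0.02) and costimulatory ligands (11, -0.08). In Cgas+/+ cells 14 of the same MHC genes were called higher, against 22.8% of all genes, with a median of 0.69. The 12 interferon signalling genes tested beside Ifnb1 were not called either. At an unadjusted p under 0.05 in edgeR's test, 7.65% of all genes were higher and 4.69% lower. At that threshold the members higher and lower numbered 4 and 2 for lysosome and autophagy and 4 and 1 for cholesterol synthesis. They numbered 5 and 1 of 12 for heat shock and 6 and 2 of 48 for oxidative phosphorylation. The counts were 1 and 0 for MHC, 0 and 3 for costimulatory ligands and 1 and 0 for interferon signalling. DESeq2 and limma-voom each called 1 lysosome or autophagy gene higher, 1 lower and 1 heat shock gene higher, and none in the other 5 lists.

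The genes called in Cgas-/- cells were compared with the Cgas+/+ response, which shares no library with it. Of the 142 genes called higher, 93 were also called higher in Cgas+/+ cells (65.5% of this list and 2.99% of the 3112), 21 were called lower (14.8%) and 28 were not called. Of the 38 called lower, 19 were also lower (50%), 11 were higher (28.9%) and 8 were not called. The background in Cgas+/+ cells was 22.8% higher and 24.7% lower. By the interaction, the response of 99 of the 142 differed between genotypes, against 34% of all genes. It was below the Cgas+/+ response in 60 and above it in 39, against 16.6% and 17.4% of all genes. The values behind the Cgas-/- calls also enter this interaction. Read from the wild-type side, 723 genes rose beyond a log2 fold change of 1 in Cgas+/+ cells, of which 22 (3.04%) were called higher in Cgas-/- cells, and their median log2 fold change there was 0.08.

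**Figure D5:**
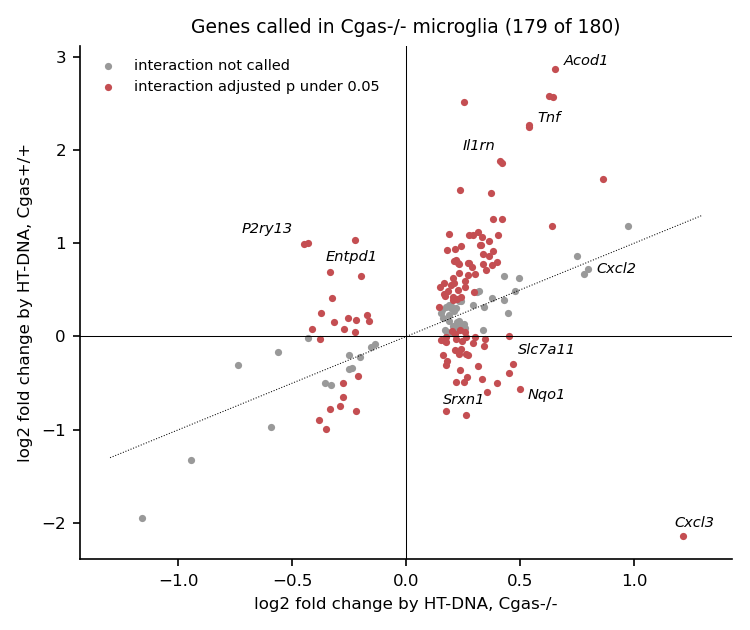
Log2 fold change by HT-DNA in Cgas-/- (x axis) and Cgas+/+ microglia (y axis) for 179 of the 180 genes called in Cgas-/- cells, with Gm22009 outside the axes; red points had a called interaction and the dotted line marks equal change. Tnf, Il1rn and Acod1 lie far above the line, Cxcl2 near it, and Srxn1, Nqo1 and Cxcl3 have opposite signs.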

How the data were processed

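The deposited microglia table held raw read counts per gene for 18 libraries, made by the authors from QuantSeq 3′ libraries, which count messenger RNA ends. The submitters' processing notes name GRCm38, edgeR and limma, and the aligner and counter are not given in the sources used here. Counts were fitted in R 4.3.3 with edgeR 4.0.16 (quasi-likelihood test, TMM scaling, filterByExpr), with all 6 groups sharing one estimate of spread, and p-values adjusted by Benjamini-Hochberg over 13675 genes. A standard error is the size of the log2 fold change divided by the square root of F. The code was tested on simulated data. Members and lists were chosen with earlier results of these data known. Named genes were those past a log2 fold change of 1, the 15 rises and 10 falls with the smallest p among separated, named genes with a mean count of at least 20, up to 4 called members of each list by size of change, and a fixed set, of which 1 gene is not reported here; any other is said to be chosen after its values were seen or to complete a list. Alternatives used DESeq2 1.42.0, limma-voom (limma 3.58.1), other scalings and filters, a replicate block, the compared groups alone, and each library left out. Depth was 17037459 to 24284998 counts per library, and floors of 3 counts cover counting error only. Gene positions are from GENCODE on GRCm38, promoter windows from RefSeq GRCm38.p6, which held 57 of 73 named genes. The hippocampal libraries were left out because they answer other comparisons.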

Additional observations from a re-analysis of the deposited data

Results flagged for a closer look

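For 65 genes named here the response to HT-DNA differed between Cgas-/- and Cgas+/+ microglia by the interaction term of the edgeR fit (adjusted p under 0.05). For 27 others, Ifnb1 aside, no difference was called. Over all genes 34% had a called difference. Most of the named genes were called in Cgas-/- cells, and the values behind those calls also enter the interaction. Values are the Cgas-/- log2 fold change minus the Cgas+/+ one.

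NRF2 and NADPH genes lay above 0: Srxn1 0.90, Me1 0.84, Nqo1 1.06, Gclm 0.74, Gclc 1.10, Txnrd1 0.60, Slc7a11 0.44, Hmox1 0.27 and Pgd 0.18. Herpud1 (0.45), Slc20a1 (0.37), Slc16a3 (0.19) and Vim (0.17) were above 0 as well. The differences for Zmat3 (0.38), Sesn1 (0.51), Trp53inp1 (0.22) and Gas7 (0.64) belonged to genes that fell in both genotypes, more so in Cgas+/+ cells. The neutrophil attractant Cxcl3 (3.35) rose in one genotype and fell in the other.

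Inflammatory genes lay below 0, with Tnf at -1.71, Il1rn at -1.47, Acod1 at -2.22, Ptgs2 at -0.82, Ccl4 at -2.16, Ccl3 at -1.82, Nfkbia at -1.05, Nfkbiz at -0.50, Nfkbie at -0.66, Nlrp3 at -0.69, Cd14 at -0.44, Tlr2 at -0.66 and Lrrfip1 at -0.56. Interferon-linked genes were Irf7 (-1.76), Ifit3 (-1.63), Isg15 (-2.11), Rsad2 (-1.89), Cmpk2 (-2.19), Tbk1 (-0.72) and the targeted gene Mb21d1 (-1.15). Immediate early genes were Dusp1 (-1.17), Dusp5 (-0.55), Fosl2 (-0.36), Ier3 (-0.73), Jun (-0.35) and Klf6 (-0.41). Further genes below 0 were Ets2 (-0.88), Trib1 (-0.53), Nes (-0.55), Emp1 (-0.39), Cd44 (-0.27), Rhob (-0.19), Thbs1 (-1.95), Hbegf (-1.44), Itga5 (-0.43) and Zyx (-0.81). ER genes were Hspa5 (-0.73), Pdia4 (-0.28) and Manf (-0.18), and the amino acid carrier subunit Slc3a2 was at -0.30. Purinergic genes were P2ry12 (-1.38), P2ry13 (-1.44) and Entpd1 (-1.03), beside Tmem86a (-0.35) and Dglucy (-0.50).

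For Gm22009 the value of 4.52 came with HT-DNA replicate 1 of Cgas-/- alone being high. For Cxcl1 the value of -4.69 depends on the prior count, since its Cgas+/+ vehicle libraries had 0 reads.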

How the results depend on the processing

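The counts of 142 higher and 38 lower genes both stayed within 1.5 times with limma-voom, RLE scaling, upper-quartile scaling, a mean CPM of at least 5, the replicate block and without vehicle 2. Without a low-count filter they were 232 and 80, with 20 and 5 past a log2 fold change of 1 in place of 2 and 1. DESeq2 gave 61 lower, 3 of them past that fold. Fitting the compared groups alone gave 76 lower, and 7 higher past that fold. A mean CPM of at least 5 left 0 genes past it in either direction, and limma-voom left 1 higher. With 1 library left out the higher genes ranged from 46 to 98 and the lower from 8 to 29, those past that fold from 0 to 5 and from 0 to 3, the interaction calls from 4242 to 4513, the Cgas+/+ higher genes from 2876 to 3021 and lower from 2966 to 3177, and the tau genes in Cgas-/- cells from 1286 to 1541 higher and 539 to 747 lower. In the tau comparison, whose checks were not planned, upper-quartile scaling gave 1538 lower genes in place of 749. The cause of these moves was not tested.

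Libraries of the 2 groups with the same replicate number hardly deviated together, with correlations of their deviations of 0.0228, 0.00977 and 0.0774. The fit with a replicate block called 139 higher, 135 of them among the 142, and 37 lower, 35 of them among the 38, with 1 higher past a log2 fold change of 1.

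Of 73 named genes called, 29 stayed called with any 1 library left out. Tmem173 (-0.033 without HT-DNA 3, to 0.061 without HT-DNA 2) and Irf3 (0.038 without vehicle 3 and 0.031 without HT-DNA 3, to -0.081 without HT-DNA 1) changed sign around 0 without a call. Cxcl1 and Il6 had at most 12 reads in a Cgas-/- vehicle or HT-DNA library, and differences in them were not detectable at this depth.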

Other observations

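A further 5 genes called in Cgas-/- microglia were chosen after their values were seen, from no list. Thbs1, the matrix protein thrombospondin-1, was at 11.8, 12.2 and 9.46 CPM with vehicle and at 13.9, 17.8 and 19.2 CPM with HT-DNA (log2 fold change 0.63 ± 0.14 SE, adjusted p = 0.0199). Hbegf, a ligand of the EGF receptor, rose from 19.8, 18.9 and 17.2 CPM to 25.4, 24.2 and 25 CPM (0.42 ± 0.10 SE, adjusted p = 0.0243). Zyx, a focal adhesion protein, rose by 0.28 (adjusted p = 0.00352), Itga5, the fibronectin receptor α-chain, by 0.20 (adjusted p = 0.0135), and Met, the receptor of hepatocyte growth factor, by 0.97 on low counts (adjusted p = 0.0493). With limma-voom neither Thbs1 (adjusted p = 0.0716) nor Met (0.174) was called. Nor was Met called by edgeR with the compared groups alone (0.131). All 5 also rose in Cgas+/+ cells, Thbs1 by 2.58 and Hbegf by 1.86. Zyx was lost without vehicle 1 (adjusted p = 0.0522), Itga5 without vehicle 1, HT-DNA 2 or HT-DNA 3 (0.0755 to 0.118), Thbs1 without vehicle 1, vehicle 3, HT-DNA 2 or HT-DNA 3 (0.0595 to 0.147), Met without any library but HT-DNA 1 (0.0794 to 0.238) and Hbegf without any 1 of the 6 (0.0595 to 0.147).

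A pair of receptors of innate immunity outside the lists were chosen in the same way. Trem1, which amplifies Toll-like receptor signals, was at 5.64, 5.42 and 5.37 CPM with vehicle and at 10.4, 8.99 and 8.90 CPM with HT-DNA (0.78 ± 0.14 SE, adjusted p = 0.00284). Its rise in Cgas+/+ cells was 0.67. Tlr2, a receptor of bacterial lipoproteins, rose from 164, 166 and 170 CPM to 189, 219 and 218 CPM (0.33 ± 0.06 SE, adjusted p = 0.00296). Both stayed called with any library left out. Pclaf, a replication clamp partner, fell from 4.86, 4.48 and 3.78 CPM to 2.23, 2.61 and 2.93 CPM (-0.74 ± 0.17 SE, adjusted p = 0.0222), and was lost without vehicle 1, vehicle 2, HT-DNA 1 or HT-DNA 2 (0.0718 to 0.127). With limma-voom Pclaf was not called (adjusted p = 0.0665).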
